A study of Mus musculus with 12 samples.

Results

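The genes described here are 10 transcription regulators of the circadian clock, chosen by name: Clock, Per1, Per2, Per3, Cry1, Cry2, Nr1d1, Nr1d2, Dbp and Tef. All 10 were found by symbol in both deposited tables, out of 18908 genes in each. RNA was sequenced from cultured mesenchymal stem cells (MSCs) of mouse bone marrow, the stromal cells that can form bone and fat and were grown in DMEM with serum. The 12 libraries were 3 from old donors labelled melatonin (replicates 1, 3 and 5), 6 from old donors labelled vehicle (replicates 1, 2, 3, 5, 8 and 9) and 3 from young donors labelled vehicle (replicates 2, 4 and 5). One table (the melatonin table) holds the melatonin-labelled libraries and old vehicle replicates 1, 3 and 5, and the other (the age table) holds old vehicle replicates 2, 8 and 9 and the young libraries. The labels' protocol gives melatonin at 1 µM for 24 h, but carries that text on all 12 libraries, vehicle ones included. The groups thus rest on the titles and on tags, which give age for all 12 libraries. Tags give treatment only for the 6 libraries of the melatonin table, so in the age table vehicle rests on the titles alone. The labels give no age in months, strain, sex or time of day of harvest. Nor do they tie libraries to animals, so each p-value covers library-to-library spread, which may be technical.

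In the mammalian clock, CLOCK and its partner BMAL1 bind E-box elements and switch on the Per and Cry genes, whose proteins return to the nucleus and repress that activity. The same elements drive Nr1d1 and Nr1d2, which encode the nuclear receptors REV-ERB alpha and REV-ERB beta and repress the BMAL1 gene, and the output factors DBP and TEF, which bind D-box elements. Cultured fibroblast-like cells carry this oscillator, serum and glucocorticoid can set its phase, and melatonin is the pineal signal of night.

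Each library of one table had a near match in the other. By Pearson r of log2 CPM (read counts scaled to a common library size) over 14133 genes, the melatonin-labelled replicates 1, 3 and 5 were most like young vehicle replicates 2, 4 and 5, in that order. The old vehicle libraries of the melatonin table (1, 3 and 5) were most like those of the age table (2, 8 and 9). The match was mutual in 6 of 6 cases, with r = 0.980 to 0.994, while libraries of 1 group within a table correlated at r = 0.871 to 0.945. Matched libraries were not copies of each other, since the median chi-square over genes was 1.87 to 7.0 times that expected from counting error. Each melatonin-labelled library thus lay closer to a young vehicle library than to any old one of the age table, and labels or tables may have been mixed up. Which labels are right could not be settled from the files, so the libraries are named by their labels throughout. The melatonin comparison may therefore be a second comparison of old with young cultures, and the 2 comparisons below are not independent of each other. Library totals ran from 20595378 to 21309663 estimated counts.

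The stromal label was checked against 14 markers, whose summed level was 4396 to 19420 TPM (transcript abundance corrected for gene length and library size). The sum was 4396 to 4693 TPM in old vehicle replicates 3, 5, 8 and 9 and 6998 to 19420 TPM in the other 8 libraries. A sum is weighted to the most abundant markers. By mean log2 CPM of the same markers, old vehicle replicates 3, 5, 8 and 9 were at 6.77, 6.93, 6.75 and 7.27. Melatonin-labelled replicate 3 and young replicate 4 were at 7.05 and 6.99, below old vehicle replicate 9, so that split was not complete. Of these markers 1, Lepr, was at 0 in 1 library. Lepr averaged 0.24 ± 0.21 CPM in melatonin-labelled and 0.30 ± 0.062 CPM in young libraries (SD, n = 3 each). The old vehicle libraries tested with them averaged 9.58 ± 14.2 and 9.28 ± 14.2 CPM. Both of these SDs exceed their means, so Lepr was very uneven among old vehicle libraries. Macrophage markers were uneven. The sum of 20 of them was 29119 to 38892 TPM in old vehicle replicates 3, 5, 8 and 9 and 105 to 2327 TPM in the other 8 libraries. By group it ran from 200.3 to 2105 TPM in melatonin-labelled, 2109 to 38892 TPM in old vehicle and 105 to 1959 TPM in young vehicle libraries. Aif1 was at 0 in 1 melatonin-labelled library and no other macrophage marker was at 0 anywhere. Neutrophil, endothelial, B cell and erythroid markers summed to at most 37.4, 27.6, 3.68 and 3.10 TPM. In such bulk RNA, fewer cells of a type and less RNA per cell cannot be told apart.

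The promoter windows show which members carry the letters of clock elements close to a start. RefSeq windows of build GRCm38.p6 were found for 9 of the 10 members, all but Per2, 13 windows in all. Their 250 bases before the start were searched on both strands. For Cry2 and Nr1d1, bases after the start were not found in GENCODE M21 transcripts of the gene, so these starts are less certain. The deposited tables were made on another build, so positions serve only to identify the windows. The E-box CACGTG was in the windows of 3 of 9 genes, Per1, Cry1 and Tef, and in 6.86% of all 27025 genes with a window. A D-box (TTATGTAA, TTACGTAA, TTATATAA or TTACATAA) was in 1 of 9, Per3, which held 2 copies, and in 1.70% of all genes. The REV-ERB and ROR element core TAGGTCA and the cyclic AMP element TGACGTCA were in 0 of 9, and in 2.55% and 1.77% of all genes. These matches did not overlap each other. A match describes letters, and no match says only that they are not in this window. The 4 windows below are those shown for their matches, in lower case with the match in capitals, Tef by the second of its windows, which both hold an E-box.
Per1, chr11:69098699-69098948, plus strand, with the E-box starting 166 bases before the start: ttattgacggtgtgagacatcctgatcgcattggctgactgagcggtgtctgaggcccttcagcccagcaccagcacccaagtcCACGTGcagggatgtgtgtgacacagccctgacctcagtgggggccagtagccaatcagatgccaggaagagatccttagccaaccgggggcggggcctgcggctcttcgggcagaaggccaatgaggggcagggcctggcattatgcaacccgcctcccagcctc
Cry1, chr10:85185055-85185304, minus strand, with the E-box starting 60 bases before the start: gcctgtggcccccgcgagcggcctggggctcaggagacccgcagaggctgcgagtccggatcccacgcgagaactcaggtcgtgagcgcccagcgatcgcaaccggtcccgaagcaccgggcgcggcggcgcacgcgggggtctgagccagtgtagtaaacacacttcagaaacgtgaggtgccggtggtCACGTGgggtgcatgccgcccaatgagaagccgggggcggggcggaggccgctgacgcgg
Tef, chr15:81811164-81811413, plus strand, with the E-box starting 138 bases before the start: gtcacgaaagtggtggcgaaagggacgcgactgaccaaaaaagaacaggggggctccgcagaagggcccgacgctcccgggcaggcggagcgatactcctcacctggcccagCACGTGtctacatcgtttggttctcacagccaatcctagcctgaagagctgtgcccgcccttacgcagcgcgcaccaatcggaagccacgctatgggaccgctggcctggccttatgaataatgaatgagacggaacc
Per3, chr4:151044666-151044915, minus strand, with D-boxes starting 205 and 158 bases before the start: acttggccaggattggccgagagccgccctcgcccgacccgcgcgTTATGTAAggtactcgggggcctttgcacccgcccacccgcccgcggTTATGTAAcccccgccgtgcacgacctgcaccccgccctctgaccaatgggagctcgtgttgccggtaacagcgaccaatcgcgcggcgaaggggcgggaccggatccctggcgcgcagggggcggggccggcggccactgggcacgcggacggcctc

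Per length, the clock genes spanned a broad range of levels in MSCs. Nr1d1 had a median of 49.4 TPM over the 12 libraries, Per1 47.8 TPM and Tef 36 TPM. Nr1d1 exceeded Per1 in only 5 of 12 libraries, so these neighbours had no stable order, whereas Per1 exceeded Tef in 12 of 12. A middle tier held Nr1d2 at 16.3 TPM, Clock at 15.1 TPM, Cry2 at 14.6 TPM and Dbp at 13.3 TPM. Within it Nr1d2 exceeded Clock in 10 libraries, Clock exceeded Cry2 in 6 and Cry2 exceeded Dbp in 7, so the order of the last 3 was not stable. Cry1 followed at 9.81 TPM, Per2 at 6.745 TPM and Per3 at 3.44 TPM, and Per2 exceeded Per3 in all 12 libraries. The steadiest members across libraries were Nr1d2 and Per1, with a coefficient of variation (CV) of CPM of 12.5% and 12.7%, and the most variable were Dbp at 46.9% and Per3 at 46.7%. The median CV of the 10 members was 22.2%, and that of the 8012 genes in the members' range of mean CPM was 23.3%.

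**Figure D1:**
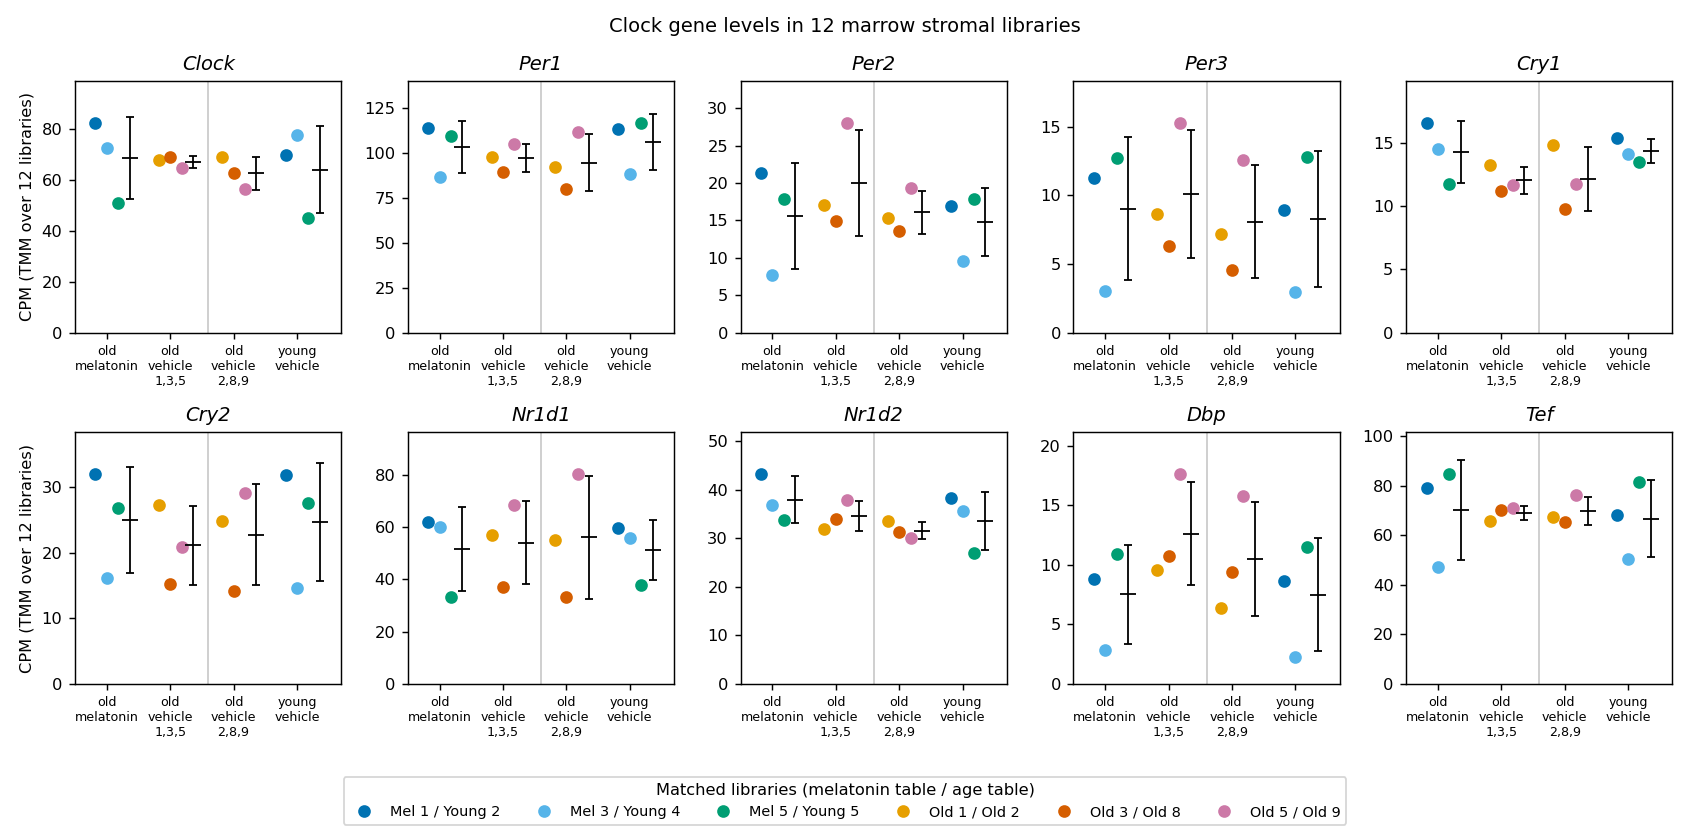
CPM of each clock gene in every library (points), by group, with group mean and SD (n = 3 libraries, black), colours joining matched libraries of both tables. The groups of each table overlap for all 10 genes, while points of 1 colour lie close together, as for Dbp at 2.87 and 2.26 CPM in melatonin-labelled replicate 3 and young replicate 4.

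The values below are CPM with library sizes scaled by TMM over all 12 libraries, given for melatonin-labelled replicates 1, 3 and 5 against old vehicle replicates 1, 3 and 5, and for old vehicle replicates 2, 8 and 9 against young vehicle replicates 2, 4 and 5. Clock (gene identifier 12753), the DNA-binding activator of the loop, was at 82.3, 72.3 and 50.8 CPM in melatonin-labelled libraries, against 67.7, 69 and 64.4 CPM in old vehicle libraries. In the age table it was at 68.9, 62.4 and 56.1 CPM in old libraries, against 69.6, 77.6 and 44.8 CPM in young libraries. The lowest values were in melatonin-labelled replicate 5 and young replicate 5, which are matched, and the groups overlapped. The log2 change was 0.02 ± 0.21 (SE; edgeR adjusted p = 0.969) for melatonin-labelled minus old vehicle and -0.03 ± 0.24 (adjusted p = 0.964) for old minus young.

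The Per genes encode the repressor partners of CRY, and Per1 and Per2 are also induced directly by serum, cyclic AMP and glucocorticoid. Per1 (18626) had the smallest spread of the Per and Cry genes. It was at 114, 86.8 and 109.7 CPM in melatonin-labelled libraries, against 97.9, 89.3 and 105 CPM in old vehicle libraries. In the age table it was at 92.3, 79.8 and 111 CPM in old libraries, against 113, 88.2 and 117 CPM in young libraries, again with overlap. Per2 (18627) was at 21.3, 7.69 and 17.8 CPM in melatonin-labelled libraries, against 17.1, 14.9 and 28.0 CPM in old vehicle libraries. Per2 was at 15.4, 13.6 and 19.3 CPM in old libraries, against 17.0, 9.52 and 17.9 CPM in young libraries. Its lowest values were in melatonin-labelled replicate 3 and young replicate 4, and its highest in old vehicle replicate 5. Per3 (18628), the Per gene least required for rhythms in mice, was at 11.2, 3.05 and 12.7 CPM in melatonin-labelled libraries, against 8.62, 6.30 and 15.3 CPM in old vehicle libraries. Per3 was at 7.14, 4.52 and 12.6 CPM in old libraries, against 8.94, 2.97 and 12.8 CPM in young libraries. Its lowest and highest libraries were in the same matched pairs as those of Per2. The log2 change of Per2 was -0.37 ± 0.45 for melatonin-labelled minus old vehicle (edgeR adjusted p = 0.724) and 0.12 ± 0.32 for old minus young (adjusted p = 0.883). The melatonin value rested on single libraries: it was -0.040 without old vehicle replicate 5, -0.046 without melatonin-labelled replicate 3 and -0.66 without melatonin-labelled replicate 1.

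The Cry genes encode the stronger repressors of CLOCK and BMAL1. Cry1 (12952) was at 16.5, 14.5 and 11.7 CPM in melatonin-labelled libraries, against 13.2, 11.2 and 11.7 CPM in old vehicle libraries. It was at 14.8, 9.75 and 11.8 CPM in old libraries, against 15.3, 14.1 and 13.5 CPM in young libraries. Of the members, Cry1 had the smallest adjusted p in the age comparison, with a log2 change of -0.24 ± 0.25 (edgeR adjusted p = 0.683), and old replicate 2 lay inside the young range. Cry2 (12953) was at 32.0, 16.2 and 26.8 CPM in melatonin-labelled libraries, against 27.3, 15.3 and 20.9 CPM in old vehicle libraries. It was at 24.9, 14.2 and 29.2 CPM in old libraries, against 31.9, 14.7 and 27.6 CPM in young libraries. Each of the 4 groups thus held 1 library between 14.2 and 16.2 CPM.

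Nr1d1 (217166), the REV-ERB alpha gene, was at 61.7, 59.9 and 33.1 CPM in melatonin-labelled libraries, against 56.8, 37.0 and 68.3 CPM in old vehicle libraries. It was at 54.9, 33.0 and 80.2 CPM in old libraries, against 59.8, 55.7 and 38.0 CPM in young libraries. The low values were in melatonin-labelled replicate 5 and young replicate 5, and in old vehicle replicates 3 and 8. Exons of Nr1d1 share 263 bases with Thra, the thyroid hormone receptor gene on the opposite strand (GENCODE M21). Whether counting used strand is not given in the sources used here, so reads of the shared stretch cannot be assigned with certainty. The same holds for Cry2 and Tef, whose exons share 149 and 193 bases with the opposite-strand genes D930015M05Rik and Gm17597. Thra was at 313 and 336 CPM in melatonin-labelled replicate 5 and young replicate 5, where Nr1d1 was low, and at 62.6 and 65.0 CPM in old vehicle replicates 3 and 8, where it was low too. Nr1d2 (353187), the REV-ERB beta gene, was at 43.2, 36.8 and 33.9 CPM in melatonin-labelled libraries, against 31.8, 34.0 and 37.9 CPM in old vehicle libraries. It was at 33.5, 31.2 and 30.0 CPM in old libraries, against 38.2, 35.5 and 26.9 CPM in young libraries, so the old values lay inside the young range.

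Dbp (13170) and Tef (21685) encode related D-box activators through which the loop reaches other genes. Dbp was at 8.81, 2.87 and 10.9 CPM in melatonin-labelled libraries, against 9.53, 10.7 and 17.6 CPM in old vehicle libraries. It was at 6.38, 9.35 and 15.8 CPM in old libraries, against 8.66, 2.26 and 11.5 CPM in young libraries. The groups overlapped in both tables, and the highest library exceeded the lowest 7.79-fold, the widest range of the 10 members. With all libraries, Dbp had the largest log2 change of the members in both comparisons, -0.76 ± 0.54 for melatonin-labelled minus old vehicle (edgeR adjusted p = 0.542) and 0.49 ± 0.65 for old minus young (adjusted p = 0.747). As single libraries were left out, the Dbp change ran from -1.09 to -0.37 for melatonin, where it was -0.37 without melatonin-labelled replicate 3 and -0.44 without old vehicle replicate 5. For age it ran from 0.073 to 0.94, with 0.073 without young replicate 4, 0.082 without old replicate 9, 0.75 without old replicate 2 and 0.94 without young replicate 5. Exons of Dbp share 539 of their 1837 bases with Sphk2, a sphingosine kinase gene on the opposite strand. Sphk2 was at 80.3 to 94.2 CPM in old vehicle replicates 3, 5, 8 and 9, the libraries rich in macrophage transcripts, and at 27.5 to 39.9 CPM in the other 8, and its part in the Dbp values was not tested. With old vehicle replicates 8 and 9 left out, the Dbp change for old minus young was -0.22. With old vehicle replicates 3 and 5 left out, the Dbp change for melatonin-labelled minus old vehicle kept its sign, at -0.34. In both fits the remaining old vehicle library is assumed to vary like those of the other group. Tef was at 79.1, 47.1 and 84.7 CPM in melatonin-labelled libraries, against 65.9, 70.1 and 71.2 CPM in old vehicle libraries. Tef was at 67.5, 65.5 and 76.3 CPM in old libraries, against 68.3, 50.5 and 81.5 CPM in young libraries, so in both tables the old vehicle values lay inside the range of the other group.

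No clock gene passed the test in either comparison. For melatonin-labelled minus old vehicle, labelled as a test of the hormone on old MSCs but open to the doubt about labels given above, edgeR's quasi-likelihood test called 0 of 10 members at an adjusted p under 0.05, and 0% of 13471 genes tested. No member was under 0.05 before adjustment, where 14.2% of all genes were, and none had groups without overlap, as 18.7% of all genes had (9.09% higher and 9.65% lower). The change was above 0 for 6 of 10 members and 51.7% of all genes. For old minus young, labelled as a contrast of donor age, the count was 0 of 10 members and 0% of 13547 genes. There were 0 members against 13.8% of all genes under an unadjusted p of 0.05 by edgeR. Without overlap were 0 members against 18.5% of all genes (9.29% lower and 9.22% higher). The change was above 0 for 4 of 10 members and 47.7% of all genes. Old vehicle replicates 8 and 9 in this comparison, and 3 and 5 in the melatonin one, were rich in macrophage transcripts. No young or melatonin-labelled library was, so neither comparison separates its label from macrophage content. DESeq2 and limma-voom also called 0 members in both comparisons, and 0 were under an unadjusted 0.05 by either. DESeq2 called 895 genes for melatonin and 865 for age, and limma-voom 0 in both. Without old vehicle replicate 1, edgeR called 602 genes for melatonin, and still 0 members.

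Most members had an absolute change below the median of all genes tested, 8 of 10 for melatonin and 9 of 10 for age. Those genes were not matched to the members in level. The exceptions were Dbp in both comparisons and Per2 for melatonin. The median absolute log2 change of the members was 0.15 for melatonin-labelled minus old vehicle and 0.12 for old minus young, while over all genes it was 0.34 in both. The median signed change of the members was 0.02 and -0.03, and that of all genes 0.02 and -0.02. For 6 members in each comparison the 95% interval of the log2 change stayed within 1 on either side of 0, that is, within a doubling or halving. Those were Clock, Per1, Cry1, Nr1d2 and Tef in both, with Nr1d1 for melatonin and Per2 for age. The intervals were widest for Dbp (-2.07 to 0.56 for melatonin, -1.08 to 2.06 for age) and Per3 (-1.65 to 1.31 and -1.54 to 1.49). Changes of these genes inside those bounds were not excluded. Only 6 of the 20 changes kept their sign under all alternatives tried, those of Per1 in both comparisons and of Per2, Cry1, Nr1d2 and Dbp for melatonin.

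**Figure D2:**
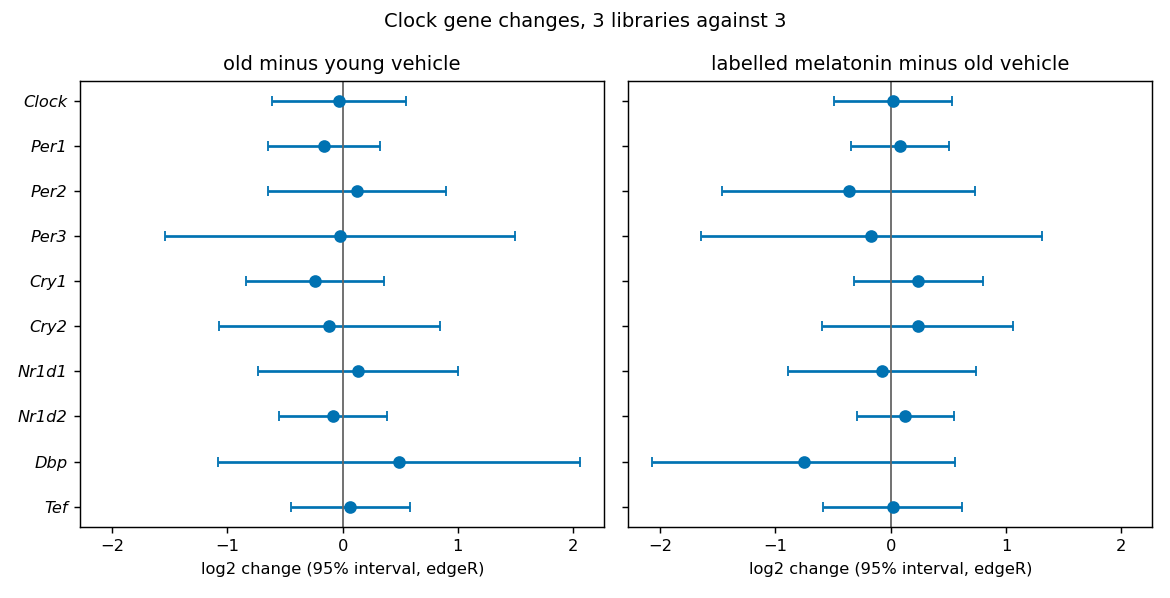
Log2 change of each clock gene with its 95% interval from edgeR, for old minus young vehicle (left) and labelled melatonin minus old vehicle (right), n = 3 libraries a group. All 20 intervals include 0, and the widest belong to Per3 and Dbp.

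For each clock gene, matched pairs of libraries differed over a wider range than the libraries within any pair. Over the 10 genes and 6 pairs, the median absolute log2 ratio within a pair was 0.13 and the largest was 0.58, for Dbp in old vehicle replicates 1 and 2. Between pair means the log2 range was 0.43 for Nr1d2 and Per1, 1.44 for Per2, 2.2 for Per3 and 2.71 for Dbp. For 10 of 10 members it exceeded the largest ratio within a pair, but for Nr1d2 that ratio was 0.33, not far below. The pairs were found from these same libraries, so this is a description and was not tested.

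Different members set different pairs apart. The pair of melatonin-labelled replicate 3 and young replicate 4 was the lowest for 4 members, Per2, Per3, Dbp and Tef, yet had Nr1d1 at 59.9 and 55.7 CPM and Clock at 72.3 and 77.6 CPM. Old vehicle replicates 3 and 8 were the lowest for another 4, Per1, Cry1, Cry2 and Nr1d1. Old vehicle replicates 5 and 9 were the highest for 4, Per2, Per3, Nr1d1 and Dbp, and melatonin-labelled replicate 1 with young replicate 2 for 5, Clock, Per1, Cry1, Cry2 and Nr1d2. Old vehicle replicates 1 and 2 were at neither end for any member. Both old vehicle pairs 3 with 8 and 5 with 9 were rich in macrophage transcripts, and Nr1d1 was lowest in 1 of them, at 37.0 and 33.0 CPM, and highest in the other, at 68.3 and 80.2 CPM. Cry1, by contrast, was among its 4 lowest libraries in 3 of these 4, and the part of macrophage transcripts in that was not tested.

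Between melatonin-labelled libraries and the young libraries they match, Nr1d2 was the member higher in 3 of 3, by log2 ratios of 0.18, 0.05 and 0.33. Its ratios in the matched pairs of old vehicle libraries, melatonin table over age table, were -0.08, 0.12 and 0.33, so the ratios above do not exceed those between vehicle libraries. Per1 had ratios of 0.01, -0.02 and -0.09 and Dbp of 0.02, 0.35 and -0.08. These ratios were not tested, since the labels do not pair those libraries.

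**Figure D3:**
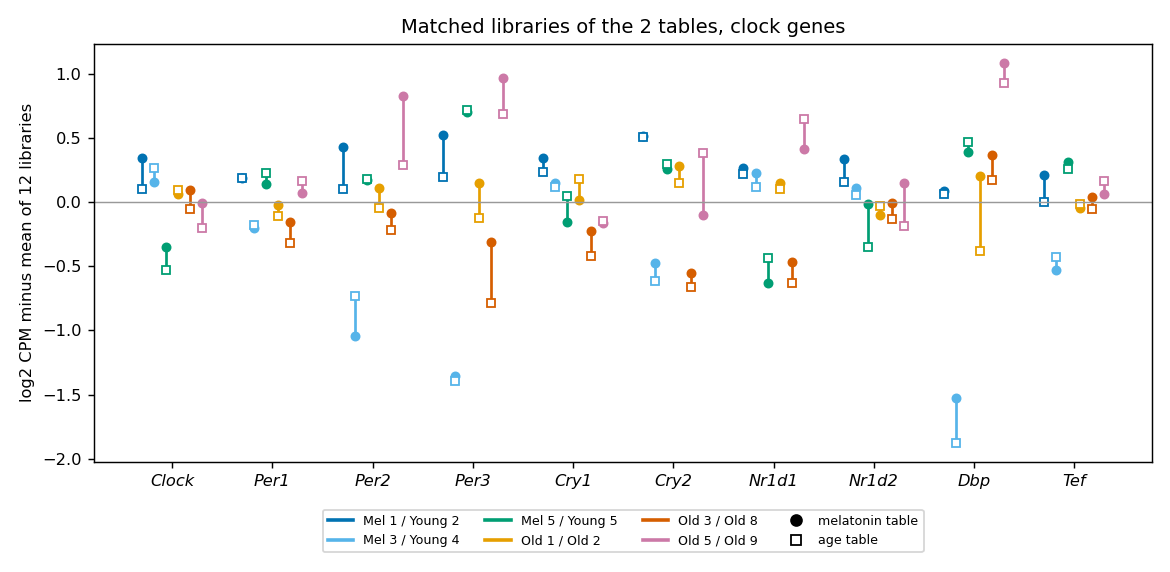
Log2 CPM of each clock gene minus its mean over 12 libraries, with matched libraries of the melatonin table (filled circles) and the age table (open squares) joined by a line. Lines are shorter than the span of the pair means, clearly so for Dbp and Per3, whose pair means span 2.71 and 2.2 log2 units. For Nr1d2 the longest line is 0.33 against a span of 0.43.

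No other listed transcription factor of the loop was called. Their median absolute log2 change was 0.38 for melatonin and 0.44 for age, above the 0.15 and 0.12 of the members. Over all genes it was 0.34 in both comparisons. Of 11 listed genes 10 passed the filter on low counts, and 0 passed at an adjusted p under 0.05 in either comparison. Before adjustment 3 did in each, higher for melatonin, where 4.76% of all genes were, and lower for age, where 4.95% were. Their median log2 change was 0.36 for melatonin and -0.36 for age. Nfil3, a repressor at D-box elements that opposes DBP, was at 51.1, 35.0 and 70.1 CPM in melatonin-labelled libraries, against 33.8, 25.2 and 20.8 CPM in old vehicle libraries. It was at 33.1, 24.8 and 20.2 CPM in old libraries, against 47.4, 36 and 75.0 CPM in young libraries, so neither pair of groups overlapped. Its log2 change was 0.96 ± 0.32 for melatonin (edgeR adjusted p = 0.295) and -1.02 ± 0.33 for age (adjusted p = 0.315). Its 4 lowest libraries, at 20.2 to 25.2 CPM, were old vehicle replicates 3, 5, 8 and 9, the libraries rich in macrophage transcripts, whose part was not tested.

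Npas2, a paralogue of Clock that can stand in for it, averaged 18.1 ± 10.6 CPM in melatonin-labelled and 4.84 ± 3.17 CPM in old vehicle libraries (SD, n = 3 each). In the age table the Npas2 mean was 4.69 ± 3.56 CPM for old donors and 16.3 ± 7.45 CPM for young donors. The log2 change was 1.90 ± 0.67 for melatonin (edgeR adjusted p = 0.317) and -1.79 ± 0.64 for age (adjusted p = 0.325). Npas2 was at 2.44 to 3.65 CPM in old vehicle replicates 3, 5, 8 and 9. It reached 8.43 and 8.80 CPM in the old vehicle libraries 1 and 2, and 7.03 and 8.37 CPM in melatonin-labelled replicate 3 and young replicate 4. The low values were thus in the libraries rich in macrophage transcripts, whose part was not tested. Hlf, the relative of Dbp and Tef, was near 7 CPM in only 4 libraries, with 6.95 and 6.74 CPM in melatonin-labelled replicates 1 and 5 and 6.95 and 7.62 CPM in young replicates 2 and 5. It was at 0.18 CPM in melatonin-labelled replicate 3, at 0.25 to 0.73 CPM in the 6 old vehicle libraries and at 0.62 CPM in young replicate 4. Its log2 change was 3.37 ± 1.25 for melatonin (edgeR adjusted p = 0.327) and -3.56 ± 1.02 for age (adjusted p = 0.315). Dbp and Tef were at their lowest in the same melatonin-labelled replicate 3 and young replicate 4, but did not share the low Hlf of the old vehicle libraries. Bhlhe41, an E-box repressor, had log2 changes of -0.81 ± 0.54 for melatonin and 1.13 ± 0.52 for age. Its 3 highest libraries, at 60.9, 57.3 and 38.5 CPM, were old vehicle replicates 3, 8 and 9, all rich in macrophage transcripts. Old vehicle replicate 5, also rich in them, had 27.5 CPM, below melatonin-labelled replicate 1 at 29.4 CPM. Old vehicle replicates 1 and 2 had 17.0 and 15.8 CPM. The part of macrophage transcripts in Bhlhe41 was not tested. The BMAL1 gene, listed as Arntl, ran from 26.2 to 48.8 CPM in melatonin-labelled libraries, 28.0 to 38.7 CPM in old vehicle libraries and 27.2 to 46.5 CPM in young libraries.

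**Figure D4:**
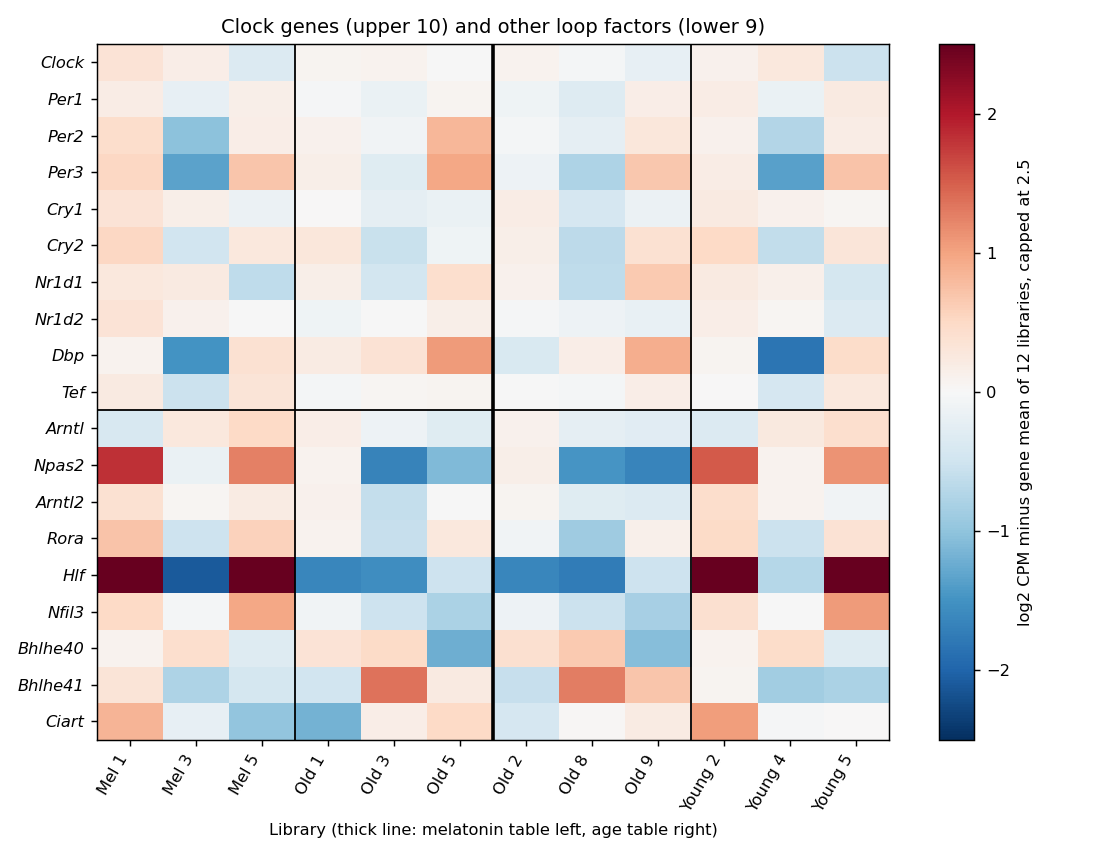
Log2 CPM of the 10 clock genes (upper block) and 9 other loop factors (lower block) minus each gene's mean over 12 libraries, melatonin table left and age table right. Nfil3 and Npas2 are mostly above their means in melatonin-labelled and young libraries, Hlf is high in 4 libraries, and the members show columns shared by matched libraries rather than by group.

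No listed gene that acts on the clock proteins passed the test, as no gene at all did by edgeR. All 11 listed kinases, ubiquitin ligase components and the CLOCK-interacting gene Cipc were tested, and 0 were under 0.05, adjusted or not, in either comparison. Cipc, which encodes an inhibitor of CLOCK and BMAL1, came closest, averaging 26.0 ± 1.78 CPM in melatonin-labelled and 39.0 ± 11 CPM in old vehicle libraries, and 36.9 ± 8.96 CPM for old donors and 25.4 ± 1.72 CPM for young donors (SD, n = 3 each). Its 4 highest libraries, at 37.1 to 48.9 CPM, were old vehicle replicates 3, 5, 8 and 9, which were rich in macrophage transcripts. The casein kinase 2 genes Csnk2a2 and Csnk2a1 had log2 changes of 0.22 ± 0.17 and 0.16 ± 0.15 for melatonin, and -0.21 ± 0.16 and -0.17 ± 0.14 for age. Gsk3b, the gene of a PER and REV-ERB kinase, had -0.14 ± 0.14 for age, and Fbxw11, a ubiquitin ligase component, had -0.19 ± 0.20 and 0.16 ± 0.17.

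Of 9 known clock-controlled genes outside the loop, all were tested and 0 were called. Before adjustment, 2 were lower for melatonin (9.45% of all genes were) and 3 higher for age (8.81% were). Noct, a deadenylase-related gene with strong rhythms in liver, averaged 15.1 ± 3.78 CPM in melatonin-labelled and 26.1 ± 4.10 CPM in old vehicle libraries, and 26.5 ± 3.47 CPM for old donors and 15.7 ± 5.37 CPM for young donors (SD, n = 3 each). The groups did not overlap in either table, and the log2 change was -0.79 ± 0.26 for melatonin (edgeR adjusted p = 0.297) and 0.76 ± 0.30 for age (adjusted p = 0.350). Por, the cytochrome P450 reductase gene, was at 295 to 425 CPM in old vehicle replicates 3, 5, 8 and 9 and at 52.2 to 165 CPM in the other 8 libraries. Lonrf3 was likewise at 22.6 to 104 CPM in those 4 and at 0.96 to 12.6 CPM in the other 8. Both were thus highest in the libraries rich in macrophage transcripts, whose part was not tested. Tspan4, a tetraspanin gene, had log2 changes of -0.28 ± 0.16 for melatonin and 0.31 ± 0.16 for age.

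Among genes that respond to serum, cyclic AMP or glucocorticoid, signals that also induce Per1 and Per2, those named here were not all highest in the same libraries. Fos, an immediate early gene, was at 271 and 330.1 CPM in old vehicle replicates 5 and 9 and at 5.23 to 25.4 CPM in the other 10 libraries. Fosb was at 86.0 and 123 CPM in those 2 and at 2.95 to 8.71 CPM elsewhere, and Junb at 313 and 310.5 CPM in those 2 and at 55.3 to 149.1 CPM elsewhere. Per2 was highest in old vehicle replicate 5, at 28.0 CPM, but Per1, at 105 and 111 CPM in the 2 libraries, was as high in melatonin-labelled replicate 1. Zbtb16, a glucocorticoid-induced gene, was highest in melatonin-labelled replicate 1, at 115 CPM, and averaged 82.4 ± 31.4 CPM in melatonin-labelled and 44.7 ± 25.6 CPM in old vehicle libraries. Of 13 genes of this list 0 were called, and 1 (Fos, lower) was under 0.05 before adjustment for melatonin and 0 for age.

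Of the genes through which melatonin is made and sensed, 5 were analysed, and all but Nqo2 had few counts or none. Mtnr1a, the melatonin receptor 1 gene, had 0 or 1 count in every library, with 0 in 8 of 12, which allows up to 3 counts, or 0.133 to 0.152 CPM by library (counting error only). Gpr50, an orphan relative of the receptors, had 0 to 12 counts, and the synthesis genes Aanat and Asmt 0 to 2 and 0 to 6 counts. The other melatonin receptor gene, Mtnr1b, was not analysed here, so nothing is said of its level. Nqo2, a quinone reductase gene whose protein binds melatonin, averaged 35.1 ± 8.19 CPM in melatonin-labelled and 48.3 ± 4.78 CPM in old vehicle libraries, with a change of -0.47 ± 0.22 on the log2 scale (edgeR adjusted p = 0.397). The Nqo2 mean was 47.9 ± 7.44 CPM for old donors and 33.6 ± 9.10 CPM for young donors, with a change of 0.52 ± 0.25 on the log2 scale (adjusted p = 0.420).

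Genes with the most similar pattern were ranked for 3 members by Pearson r of log2 CPM among 11206 genes with a mean of at least 5 CPM. The 12 points are matched in pairs and the genes were picked for their r, so the values describe likeness alone. For Dbp they were Rxra (r = 0.977), Itpkb (0.976) and Rab3d (0.974). Rab3d, for one, was at 28.2, 7.7 and 21.9 CPM in melatonin-labelled replicates 5, 3 and 1, with the lowest values in melatonin-labelled replicate 3 and young replicate 4, as for Dbp. For Nr1d1 they were Lifr (0.979), Ldhb (0.962) and Dgkq (0.951), and for Per2 they were Decr2 (0.971), Usp35 (0.960) and Aldh1a7 (0.947).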

How the data were processed

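The deposited estimated counts, FPKM and TPM of 12 libraries came in 2 tables of 18908 genes with symbols and identifiers, per the file headers. RSEM, BWA, Bowtie2 and mm39 appear in the submitters' processing notes, with no role. Tool versions, annotation and strand setting were not stated there. The FPKM deposited by the authors were not used, and the TPM deposited by the authors served to compare levels between genes. In the melatonin table, count headers that read Vel were taken as the vehicle titles of equal number. Of the deposited estimated counts 67.7% were within 0.005 of a whole number, and all were rounded. Each table was filtered with filterByExpr (minimum count 10, minimum total 15), scaled by TMM and tested alone with edgeR 4.0.16 in R 4.3.3 by the quasi-likelihood test, with Benjamini-Hochberg adjustment over all genes and a threshold of 0.05. Intervals use the test's own degrees of freedom, and log2 CPM a prior count of 2. The chi-square of matched libraries used genes with at least 100 counts in both together. No permutation test was run, since 3 libraries against 3 allow an exact p no smaller than 0.1 (two-sided).

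Members and gene lists were chosen with earlier results of these data known. Named genes are all members, of each list the 4 with the smallest p in each comparison together with any called, and the 3 genes most like each of Dbp, Nr1d1 and Per2. Arntl, Thra, Sphk2, Mtnr1a, Gpr50, Aanat and Asmt were added as partners or low genes after their values were seen. The alternatives were RLE scaling, DESeq2 1.42.0, limma-voom (limma 3.58.1), no filter, a threshold of 0.1, leaving out single libraries or both macrophage-rich old vehicle libraries, all 6 old vehicle libraries, the replicate number as a block, and TPM with 0.1 added. The edgeR procedure was checked on simulated counts with a coefficient of variation between libraries of 0.1. The fitted value was 0.48 in both comparisons, so the check does not show which changes could be found at the spread of these data.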

Additional observations from a re-analysis of the deposited data

How the results depend on the processing

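No clock gene was called in either comparison under any alternative, and none was under an unadjusted p of 0.05 (smallest 0.118). All counts of genes called by edgeR and limma-voom were 0, except 46 for age with all 6 old vehicle libraries (with their near matches counted as separate) and 0 to 602 for melatonin as single libraries were left out, where the 602 came without old vehicle replicate 1. DESeq2 called 865 genes for age and 895 for melatonin. The cause of these differences was not tested. Of 260 alternative changes of members, 42 had the other sign. For age these were Clock (0.00015 by limma-voom, 0.015 with all 6 old libraries), Per3 (0.13 and 0.14), Clock, Cry1, Cry2 and Dbp without old replicates 8 and 9 (0.10, 0.045, 0.015 and -0.22), and Nr1d1 and Tef by TPM (-0.086 and -0.047). For melatonin they were Clock and Tef by limma-voom (-0.0056 and -0.030), Per3 and Cry2 without old vehicle replicates 3 and 5 (0.059 and -0.13) and Nr1d1 by TPM (0.075). As single libraries were left out, the age change ran from -0.26 to 0.14 for Clock, -0.10 to 0.27 for Per2, -0.49 to 0.43 for Per3, -0.37 to 0.14 for Cry2, -0.22 to 0.41 for Nr1d1, -0.24 to 0.018 for Nr1d2 and -0.090 to 0.21 for Tef. The melatonin change ran from -0.13 to 0.24 for Clock, -0.48 to 0.26 for Per3, -0.26 to 0.20 for Nr1d1 and -0.11 to 0.23 for Tef.

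With the replicate block for melatonin, 0 genes and 0 members were called, and Clock and Tef had changes of -0.0062 and -0.026. Deviations of same-numbered libraries from their group means correlated at -0.23, 0.10 and -0.03. With so few libraries a group and the melatonin labels in doubt, these values cannot decide whether the numbers pair libraries. For age no block could be fitted, since the libraries of that table share 1 number. Each member had at least 51 counts in every library.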
